A study of Rattus norvegicus with 20 samples.

Results

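Expression of the MHC class II antigen presentation genes was examined in gastrocnemius muscle of rats that carried a colon tumour. The genes were the rows of the deposited count table whose symbol was RT1-Ba, RT1-Bb, RT1-Da, RT1-Db1, RT1-DMa, RT1-DMb, Cd74 or Ciita, and all 8 had a row among the 32495 named rows. Of these 8, 5 (RT1-Ba, RT1-Bb, RT1-Da, Cd74 and Ciita) passed the filter on low counts and were tested. RT1-Db1 lay below the filter, RT1-DMa had 0 counts in every library, and RT1-DMb had 1 count in all.

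All animals were female Fischer 344 rats with an implanted Ward colorectal carcinoma. In the treated arms the tumour had 2 weeks of growth by the start of chemotherapy. TUMOUR STD rats ate a standard diet and had no chemotherapy (5 libraries). CHEMO STD rats ate the same diet and were given 2 cycles of CPT-11 (irinotecan) with 5-fluorouracil (7 libraries). CHEMO FO rats were given the same 2 cycles and were moved to a fish oil diet, a source of EPA and DHA, on the first day of chemotherapy (8 libraries). Muscle of the treated rats was taken 7 days after the last cycle. Every group carried the tumour, so that no comparison here is with healthy muscle, and no group had the fish oil diet without chemotherapy. The labels give no age for the rats.

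Cells display peptides from engulfed or internal proteins on MHC class II molecules, which are pairs of an alpha and a beta chain read by CD4 T cells. In the rat, RT1-Ba and RT1-Bb encode the alpha and beta chains of RT1-B, the counterpart of human HLA-DQ, and RT1-Da and RT1-Db1 encode those of RT1-D, the counterpart of HLA-DR. Cd74 encodes the invariant chain, which guides new class II molecules to endosomes and fills their groove until proteases trim it away, and RT1-DMa and RT1-DMb encode the DM heterodimer that exchanges the remaining fragment for peptide. Ciita encodes the class II transactivator, which binds no DNA itself and is recruited by RFX, CREB and NF-Y factors bound to the X and Y boxes of class II promoters. Interferon gamma induces Ciita in many cell types, while macrophages, dendritic cells and B cells express class II genes as professional antigen-presenting cells. Muscle fibres at rest show little class II protein, so the class II transcripts of a muscle biopsy are usually credited to its interstitial cells.

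The X and Y boxes are regulatory sequences of class II promoters, and they are shown here because Ciita, the member with the largest fitted change below, acts through them. RefSeq promoter sequences on build GRCr8, each running from 250 bases before the start site to 50 bases after it, were held for 6 members. Ciita and RT1-DMb were not among them. The windows below are written 5′ to 3′ on the gene's own strand, with the Y box (CTGATTGG, or its core ATTGG, which lies within it) and the X box core (AGCAAC) in capitals.
RT1-Da, chr20:4515313-4515375, plus strand: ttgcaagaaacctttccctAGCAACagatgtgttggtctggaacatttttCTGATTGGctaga
RT1-Db1, chr20:4560233-4560295, minus strand: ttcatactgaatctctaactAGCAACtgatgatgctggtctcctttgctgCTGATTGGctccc
RT1-Ba, chr20:4576961-4577023, plus strand: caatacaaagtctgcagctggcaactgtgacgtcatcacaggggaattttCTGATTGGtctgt
RT1-Bb, chr20:4604170-4604232, minus strand: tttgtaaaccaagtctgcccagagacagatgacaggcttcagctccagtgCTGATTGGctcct
RT1-DMa, chr20:4712387-4712449, minus strand: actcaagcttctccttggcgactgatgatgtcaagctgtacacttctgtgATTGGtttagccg
Cd74, chr18:56527115-56527164, plus strand: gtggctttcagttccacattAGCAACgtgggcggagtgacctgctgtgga
The full Y box CTGATTGG was found in 4 of the 6 member promoters (RT1-Da, RT1-Db1, RT1-Ba and RT1-Bb), each time on the gene's strand and beginning 46 to 83 bases upstream of the start site. Over both strands of all 33469 promoters of the same length, 3.5% hold it. The shorter core ATTGG was in 6 of 6, where 37.5% of all promoters hold it, and in Cd74 it was on the opposite strand, 189 bases upstream and outside the window shown. AGCAAC was in 3 of 6 (Cd74, RT1-Da and RT1-Db1) against 14.7% of all promoters. In RT1-Da and RT1-Db1, 25 and 24 bases lie between AGCAAC and the Y box. The interferon gamma-activated motif TTCNNNGAA (in 8.87% of all promoters) and the consensus of the interferon-stimulated response element (in 3.92%) were in 0 of the 6 windows of 300 bases. These are matches of letters in a reference and no measurement of binding.

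Libraries held 5422118 to 10857477 counts in TUMOUR STD, 3020821 to 10516783 in CHEMO STD and 3035841 to 9119394 in CHEMO FO. Levels are given as CPM, counts per 1000000 counts of a library size adjusted by TMM. CHEMO STD replicates 1 and 2 were far more alike than any other pair (mean chi-square per gene 2.23, while the 58 other within-group pairs had 13.7 to 255) and were counted as 1 sample by summing them, which leaves 19 samples and n = 6 in CHEMO STD. Cd74 had 1429 and 1499 counts in these libraries and Ciita had 48 and 52. All samples carried the label's tissue, with 8 muscle markers such as Ckm, Acta1 and Myh4 summing to 123900 to 244000 CPM, and 0 of the 8 were called in any comparison. The lowest sum was that of CHEMO FO 18, and the next lowest was 175400 CPM in TUMOUR STD 8. Keratinocyte genes stood at 331.5 CPM in TUMOUR STD 10 and 74.9 CPM in CHEMO FO 16, against 0.24 to 2.83 CPM in the 17 other samples.

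CHEMO STD 7 stood apart from all other samples in the class II genes and in leukocyte genes. Most class II results that rest on CHEMO STD are therefore given with and without it. Those relative to pan-leukocyte genes, and the unfiltered fit of RT1-Db1, are given only with it. The 8 class II genes together made up 539.7 CPM there, against 123.9 to 260.4 CPM in the 18 other samples. It was the highest of the 19 samples in each of the 6 members with more than 1 count. Against the next highest sample it was 2.43-fold higher in Ciita, 2.10-fold in Cd74, 1.97-fold in RT1-Ba, 1.89-fold in RT1-Bb, 1.71-fold in RT1-Da and 1.30-fold in RT1-Db1.

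Lymphocyte and lymph node genes were high together with the class II genes in CHEMO STD 7. The 9 B cell markers summed to 115.4 CPM in this sample and to 0.54 to 4.56 CPM in the others. They were led by the complement receptor Cr2 (216 counts, at most 2 elsewhere) and the antigen receptor component Cd79b (109 counts, at most 2 elsewhere). Next came Cd22 (78 counts, at most 39 elsewhere, or 15.3 CPM against at most 3.78 CPM) and Ms4a1 (47 counts, at most 1 elsewhere). All 9 B cell markers had counts in this sample. Of the 8 genes of lymph node stroma and homing, the vessel mucin Glycam1 had 157 counts against 0 in all other samples, and the list summed to 117.6 CPM against 4.04 to 30.7 CPM, with Ltb and Madcam1 at 0 counts. The 9 T cell markers, all detected, summed to 65.8 CPM against 15.3 to 30.2 CPM. Most of the sum elsewhere was Cd4, at 29.1 CPM in CHEMO STD 7 and 13.6 to 27.1 CPM in the others. Cd247 had 35 counts (at most 5 elsewhere), Cd3d 18 (at most 6), Cd3e 10 (at most 5) and Cd3g 8 (at most 2). The 7 pan-leukocyte genes summed to 210.8 CPM against 33.1 to 56.1 CPM, with Cd52 at 0 counts. The 12 dendritic cell markers, with Cd209a at 0 counts, summed to 66.2 CPM, below CHEMO FO 18 (73.1 CPM) and above the 17 remaining samples (25.7 to 49.8 CPM). Among them the homing receptor Ccr7 (45 counts, at most 5 elsewhere), Irf8 (16.1 CPM, at most 5.49 elsewhere) and Cd83 (11.4 CPM, at most 6.27 elsewhere) were highest in CHEMO STD 7. No other of the 12 was highest there. Itgax (1.57 CPM, median 2.095 elsewhere), Clec10a (13.9 CPM, median 14.6 elsewhere), Clec9a and Batf3 lay below the median of the other samples. Flt3, Fscn1, Zbtb46 and Xcr1 lay above it. The 13 macrophage markers, all detected, came to 505.1 CPM, below CHEMO FO 18 (817.9 CPM) and the sum of CHEMO STD replicates 1 and 2 (534.5 CPM) and above the rest. Plasma cell markers (5 genes, with Tnfrsf17 and Derl3 at 0 counts) summed to 4.12 CPM against 2.27 to 29.1 CPM. The part of these cells in the class II levels of this sample was not tested. In bulk tissue, more cells of a type and more RNA per cell cannot be told apart.

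**Figure D1:**
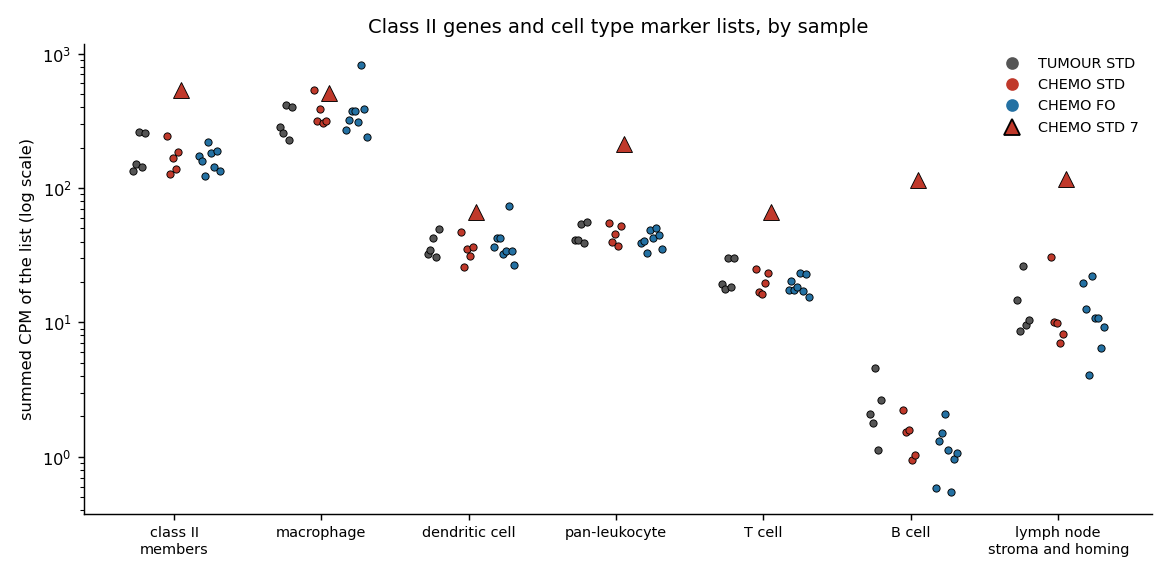
Summed CPM (log scale) of the class II genes and of 6 marker lists, with each point 1 sample coloured by group and the triangle CHEMO STD 7. The triangle lies above all other samples for class II, pan-leukocyte, T cell, B cell and lymph node lists and below CHEMO FO 18 for the macrophage and dendritic cell lists.

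The chains of RT1-B were present at low levels. RT1-Ba was measured at 6.94, 5.46, 13.6, 5.00 and 10.5 CPM in TUMOUR STD replicates 8 to 12. In CHEMO STD its lowest, median and highest samples were 5.08, 7.55 and 26.7 CPM, and in CHEMO FO 4.80, 5.91 and 8.57 CPM. The groups overlapped throughout, and 8 of 8 CHEMO FO samples lay below TUMOUR STD 10 and 12.

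RT1-Bb, the partner beta chain, was at 20.1, 20.7, 31.2, 19.2 and 26.6 CPM in the 5 TUMOUR STD samples. It ranged from 19.5 through a median of 23.8 to 62.0 CPM in CHEMO STD, and from 17.2 through 20.7 to 29.3 CPM in CHEMO FO. Apart from CHEMO STD 7, the highest CHEMO STD sample was the sum of replicates 1 and 2 (32.8 CPM), close to TUMOUR STD 10.

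RT1-Da, the alpha chain of RT1-D, was at 30.5, 30.8, 48.6, 29.2 and 57.9 CPM in TUMOUR STD. CHEMO STD ran from 22.9 through 30.3 to 99.1 CPM, and CHEMO FO from 24.7 through 30.6 to 37.4 CPM. The lowest and the highest of all 19 samples were both CHEMO STD samples.

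RT1-Db1, the RT1-D beta chain, was near the limit of detection, with at most 19 counts in a sample. It stood at 0, 0.60, 1.84, 2.26 and 1.06 CPM in TUMOUR STD, from 0.60 to 2.94 CPM in CHEMO STD (median 0.88) and from 0.48 to 1.18 CPM in CHEMO FO (median 0.78). The related locus RT1-Db2 had 8 counts in CHEMO STD 7 and 0 in the 18 other samples. How alike the sequences of RT1-Db1 and RT1-Db2 are was not examined. Reads that match several loci could have been divided or dropped in counting, so the level of RT1-Db1 is uncertain.

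Cd74, the invariant chain, was at 74.4, 88.9, 159.8, 86.7 and 160.1 CPM in TUMOUR STD. Its lowest, median and highest samples were 75.7, 108.5 and 335.3 CPM in CHEMO STD and 74.2, 104.4 and 143.9 CPM in CHEMO FO. TUMOUR STD samples fell into a lower trio and a higher pair, TUMOUR STD 10 and 12, which were also the highest of their group in RT1-Ba, RT1-Bb and RT1-Da.

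Ciita, the transactivator, was measured at 2.25, 3.18, 5.43, 1.45 and 2.66 CPM in TUMOUR STD. It ran from 1.22 through 4.67 to 13.6 CPM in CHEMO STD and from 1.33 through 2.303 to 3.83 CPM in CHEMO FO. Of the 6 CHEMO STD samples, 4 (1+2, 4, 6 and 7) lay above all 8 CHEMO FO samples, and CHEMO STD 3 (4 counts) was the lowest of the 19.

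RT1-DMa and RT1-DMb, the peptide exchange pair, gave no usable signal. RT1-DMa was listed at 0 counts in 19 of 19 samples, and the single count of RT1-DMb was in TUMOUR STD 11. A count of 0 allows up to 3 counts, or 0.15 to 1.05 CPM depending on the library, for counting error only. The rules by which reads of these genes were counted are not known here, and a count of 0 does not show that the transcripts were absent. RT1-DOa and RT1-DOb, which encode the DO heterodimer that restrains DM and is typical of B cells, were detected. They had 23 and 31 counts in CHEMO STD 7 and at most 11 and 15 counts elsewhere.

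**Figure D2:**
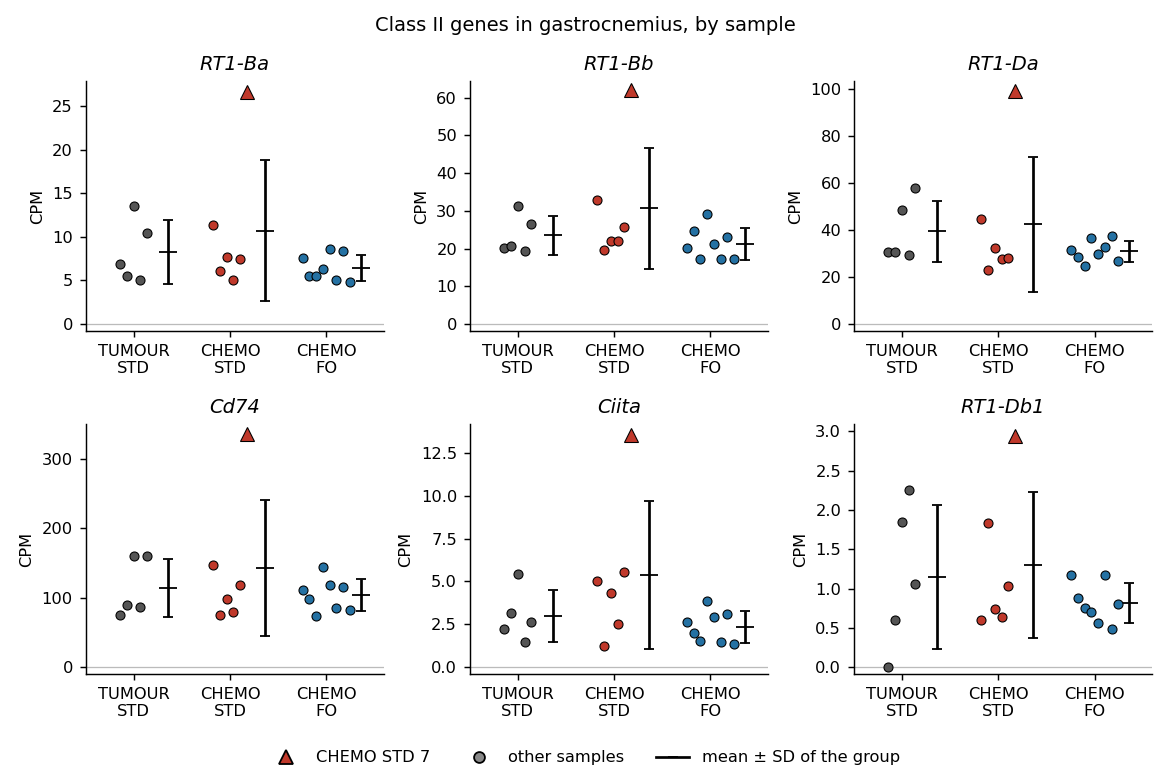
CPM of 6 class II genes in each sample (points), with mean and SD of each group (bars) and CHEMO STD 7 as a triangle. The groups overlap in every panel, and CHEMO STD 7 is the highest sample in all 6.

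By mean CPM, CHEMO STD was the highest group and CHEMO FO the lowest in all 6 members with more than 1 count. Without CHEMO STD 7, TUMOUR STD was the highest in RT1-Ba, RT1-Da, RT1-Db1 and Cd74, and CHEMO FO was still the lowest in all 6, though by less than 1 SD from the group next to it in each. Ciita averaged 2.99 ± 1.5 CPM in TUMOUR STD (SD, n = 5), 5.37 ± 4.32 CPM in CHEMO STD (SD, n = 6; 3.73 ± 1.81 CPM without replicate 7) and 2.35 ± 0.92 CPM in CHEMO FO (SD, n = 8). Cd74 averaged 114.0 ± 42.3, 142.6 ± 98.1 and 103.5 ± 23.0 CPM in the same order. The coefficient of variation of Cd74 was 37.1% in TUMOUR STD, 68.8% in CHEMO STD (28.4% without replicate 7) and 22.2% in CHEMO FO.

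The levels of the members varied more between samples than the ratios between them, in large part through CHEMO STD 7. Over the 19 samples, RT1-Da spanned 4.33-fold between its lowest and highest level, Cd74 4.52-fold, RT1-Ba 5.56-fold and RT1-Bb 3.62-fold, while the ratio of the RT1-Da level to the Cd74 level spanned 1.73-fold. The ratio of RT1-Bb to Cd74 spanned 1.65-fold and that of RT1-Ba to Cd74 2.14-fold. The ratio of Ciita to Cd74 varied more, over 2.93-fold, with 4 to 100 Ciita counts behind it. Without CHEMO STD 7 the spans of the levels were 2.53-fold (RT1-Da), 2.16-fold (Cd74), 2.83-fold (RT1-Ba) and 1.91-fold (RT1-Bb), and those of the ratios were the same as with it. The ratio of RT1-Ba to RT1-Bb then varied more (2.03-fold) than RT1-Bb itself.

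**Figure D3:**
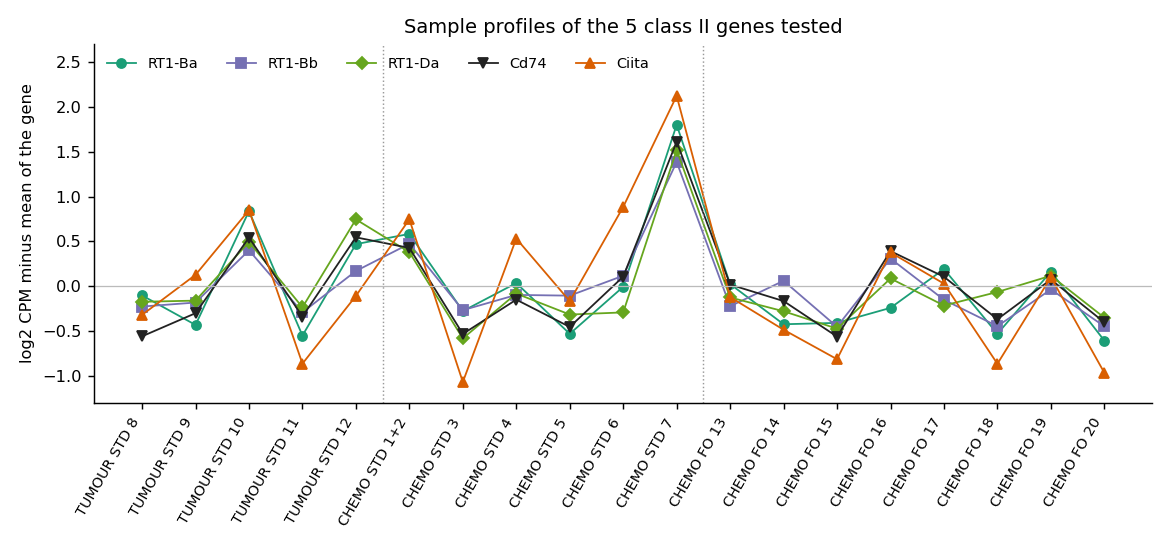
Log2 CPM (prior count 2) of 5 class II genes, each minus its own mean over the 19 samples, with the groups separated by dotted lines. The lines of RT1-Ba, RT1-Bb, RT1-Da and Cd74 run close together, peaking in CHEMO STD 7, and the line of Ciita swings more widely.

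The 5 other genes whose sample-to-sample pattern within the groups was most like that of the class II genes were Apoe (Pearson r = 0.93 over 19 samples), the macrophage lysozyme Lyz2 (0.91), the leukocyte regulator Arhgdib (0.90), the carbonyl reductase gene Cbr3 (0.89) and the receptor kinase gene Grk6 (0.88). These genes share the libraries and their depths, and all 5 were highest in CHEMO STD 7. Apoe, an apolipoprotein made by macrophages among other cells, stood at 412.9 CPM in that sample against 105 to 268.9 CPM elsewhere. Without CHEMO STD 7 the correlations were 0.88, 0.79, 0.76, 0.80 and 0.73. The 5 most alike were then a row named SNORD22__2, Anxa11, Ctdsp1, the progranulin gene Grn and the muscle filament gene Des, with r between 0.90 and 0.91.

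The effect of chemotherapy was addressed by CHEMO STD versus TUMOUR STD, in a fit of all 3 groups by edgeR's quasi-likelihood test. Calls needed both a fold of 1.5 or more and an unadjusted p under 0.05. None of the 5 class II genes tested was called (0 of 5), where 279 of 11716 genes were (2.38%), and 0 of all genes passed a Benjamini-Hochberg adjusted p of 0.05 (762 at an unadjusted p below 0.05). All 5 had fitted changes above 0. The log2 fold change was 0.83 in Ciita (SE 0.42, 95% interval -0.05 to 1.71, adjusted p = 0.719), 0.38 in RT1-Ba, 0.38 in RT1-Bb, 0.33 in Cd74 and 0.12 in RT1-Da, with adjusted p from 0.719 to 0.924 by edgeR. RT1-Db1, fitted without the filter, had 0.10 (SE 0.58). Permuting the samples (exact permutation test, two-sided, of the difference in mean log2 CPM) gave p from 0.329 (Ciita) to 0.944 (RT1-Da) for the 6 members with more than 1 count, where 7.62% of all genes had p below 0.05. These p ran from 0.230 (RT1-Da) to 0.913 (RT1-Db1) without CHEMO STD 7. RT1-Da lay slightly lower in this mean of logs (difference -0.03) and slightly higher in the fit.

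The small positive differences of RT1-Ba, Cd74 and RT1-Da were not kept without CHEMO STD 7. Then their log2 fold changes were -0.09, -0.12 and -0.31 (95% interval -0.73 to 0.10 in RT1-Da), that of RT1-Bb was 0.06 and that of Ciita was 0.36 (SE 0.37), and 0 of 5 were called. Ciita was called when any of TUMOUR STD 10 (1.18), CHEMO STD 3 (1.02) or CHEMO STD 5 (0.95) was left out instead.

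The effect of the diet during chemotherapy was addressed by CHEMO FO versus CHEMO STD. Ciita and RT1-Ba were lower in CHEMO FO past both thresholds, 2 of 5 class II genes tested, where 195 of 11716 genes were called (1.66%). Ciita had a log2 fold change of -1.27 (SE 0.40, 95% interval -2.09 to -0.45, edgeR adjusted p = 0.974), a level 0.41 times that of CHEMO STD. RT1-Ba had -0.76 (SE 0.32, 95% interval -1.41 to -0.10, edgeR adjusted p = 0.974). RT1-Bb was at -0.55 (SE 0.22) and passed the p threshold but not the fold. Cd74 and RT1-Da were both at -0.47 (SE 0.28 and 0.26) and passed neither, and RT1-Db1 without the filter was at -0.58 (SE 0.54). No gene of the table passed an adjusted p of 0.05 (0 of 11716 by edgeR and 0 by DESeq2; 527 at an unadjusted p below 0.05 by edgeR).

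The permutation test, which gives each sample the same weight, called 0 of the 6 members in this comparison. The two-sided exact p was 0.0656 for Ciita, 0.0873 for RT1-Bb, 0.131 for RT1-Ba, 0.235 for RT1-Db1, 0.428 for Cd74 and 0.430 for RT1-Da, where 4.88% of all genes had p below 0.05. The exact permutation p was 0.170 for Ciita and 0.2455 to 0.967 for the 5 others once CHEMO STD 7 was left out.

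Without CHEMO STD 7, Ciita was the only one of the 5 still called in CHEMO FO versus CHEMO STD, where 1.3% of all genes were. Its log2 fold change was then -0.79 (SE 0.35, 95% interval -1.52 to -0.06, edgeR adjusted p = 0.985). RT1-Ba was at -0.28 (95% interval -0.80 to 0.24), RT1-Bb at -0.23, RT1-Da at -0.03 (95% interval -0.41 to 0.34) and Cd74 at -0.02 (95% interval -0.45 to 0.41). CHEMO STD 3, with the fewest Cd74 counts of any sample (248), acted in the other direction, and without it 5 of 5 class II genes were called lower in CHEMO FO.

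**Figure D4:**
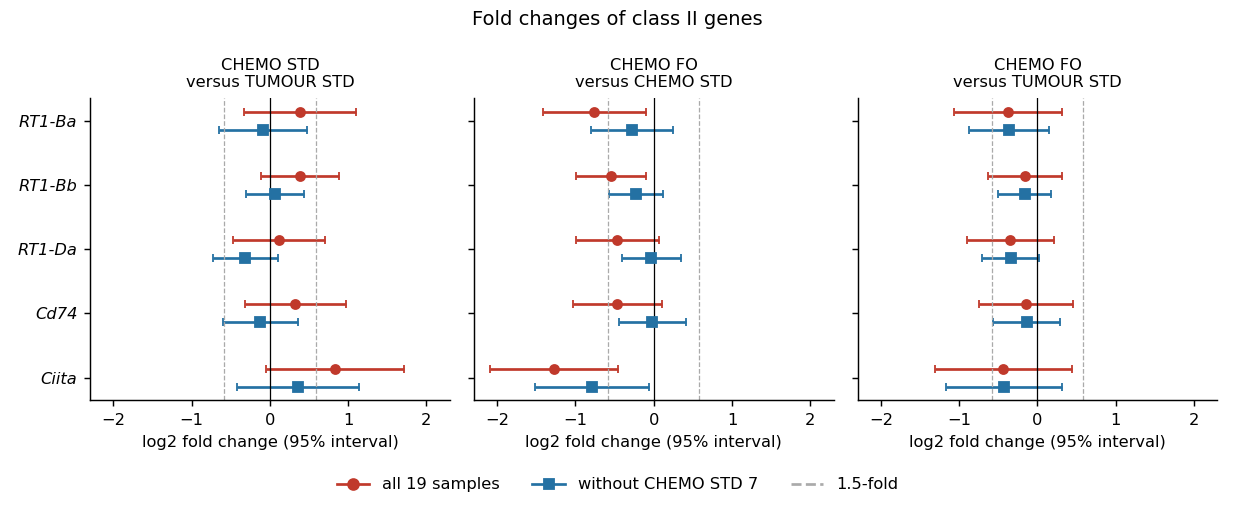
Log2 fold changes with 95% intervals of 5 class II genes in 3 comparisons, from all 19 samples (circles) and without CHEMO STD 7 (squares), with dashed lines at 1.5-fold. In CHEMO FO versus CHEMO STD the circles all lie below 0, and without CHEMO STD 7 the interval of Ciita alone excludes 0.

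CHEMO FO versus TUMOUR STD, which the study did not set up as a comparison, differs in both chemotherapy and diet and shares its samples with the other comparisons. None of the class II genes was called (0 of 5, against 422 of 11716 genes or 3.6%; 0 past an adjusted p of 0.05 by edgeR, 11 by DESeq2, and 1059 at an unadjusted p below 0.05 by edgeR). All 5 lay lower, by -0.44 (SE 0.42) in Ciita, -0.37 (SE 0.33) in RT1-Ba, -0.35 (SE 0.27) in RT1-Da, -0.16 (SE 0.23) in RT1-Bb and -0.14 (SE 0.29) in Cd74 on the log2 scale. The exact permutation p ran from 0.131 (RT1-Da) to 0.883 (RT1-Db1), where 6.71% of all genes had p below 0.05. Cd74 was at 0.01 or 0.02 when TUMOUR STD 10 or 12, the samples highest in it, was left out.

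Ciita had the largest fitted change of the 5 tested members in each comparison, and its counts were set against those of Cd74 in the same sample, a measure chosen after the values were seen. Per 100 Cd74 counts there were 3.03, 3.57, 3.40, 1.68 and 1.66 Ciita counts in TUMOUR STD. The lowest, median and highest samples were 1.61, 3.73 and 4.72 in CHEMO STD and 1.61, 2.21 and 2.697 in CHEMO FO. Of the 6 CHEMO STD samples, 5 lay above all 8 CHEMO FO samples, and CHEMO STD 3 lay at their lower end on 4 counts, with a 95% exact binomial interval of 0.44 to 4.18. CHEMO STD 7 was at 4.04, below CHEMO STD 4 and 6.

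The means were 2.67 ± 0.93 (SD, n = 5) in TUMOUR STD, 3.55 ± 1.11 (SD, n = 6) in CHEMO STD and 2.20 ± 0.42 (SD, n = 8) in CHEMO FO. The difference of CHEMO FO from CHEMO STD was -0.57 in log2 (two-sided exact permutation test, p = 0.013 over 3003 arrangements), and p was 0.0256 without CHEMO STD 7 and 0.00078 to 0.030 with any 1 library left out. Leaving out replicate 1 or 2 of CHEMO STD kept the other, so their sample (3.42 Ciita per 100 Cd74 counts) stayed in all of these runs. CHEMO STD differed from TUMOUR STD by 0.38 (exact permutation p = 0.197; 0.35 and p = 0.278 without CHEMO STD 7) and CHEMO FO from TUMOUR STD by -0.19 (exact permutation p = 0.364). These are 3 unadjusted tests of a ratio picked from the same data.

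**Figure D5:**
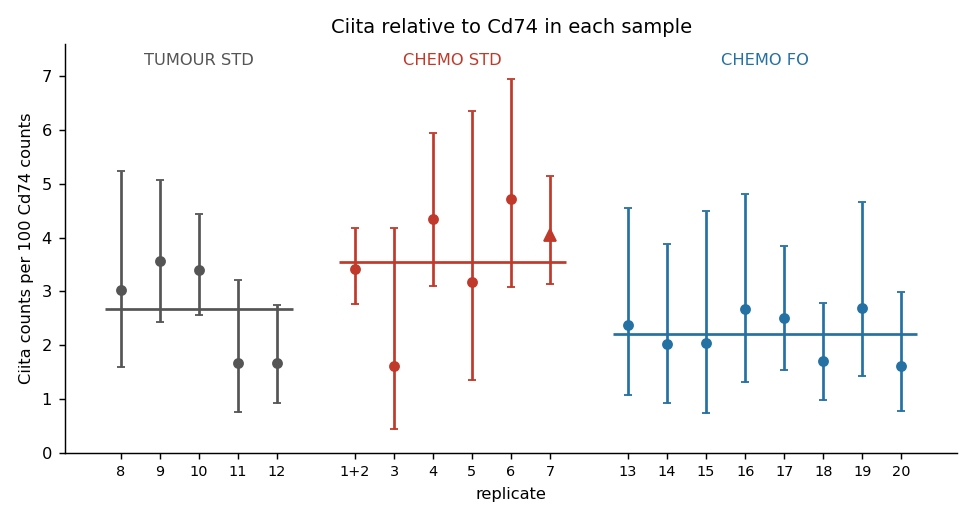
Ciita counts per 100 Cd74 counts in each sample, with 95% exact binomial intervals for counting error and the group mean as a horizontal line; the triangle is CHEMO STD 7. The CHEMO STD samples other than replicate 3 lie above all CHEMO FO samples, with wide intervals.

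Class II genes were also set beside the macrophage markers of the same samples, by taking the log2 CPM of each gene minus the mean log2 CPM of 13 macrophage genes. Between CHEMO FO and CHEMO STD, the difference was -0.67 for Ciita (exact permutation p = 0.144) and between -0.32 and -0.09 for the 5 others (exact permutation p from 0.378 to 0.765). With CHEMO STD 7 left out it was -0.40 for Ciita and between -0.06 and 0.15 for the others (exact permutation p from 0.340 to 0.979). Relative to 6 pan-leukocyte genes in place of the macrophage genes, it was -0.30 for Ciita (exact permutation p = 0.301) and above 0 for the 5 others, the largest in RT1-Da (0.29, exact permutation p = 0.04995). These pan-leukocyte values include CHEMO STD 7, where 7 such genes summed to 210.8 CPM against at most 56.1 CPM elsewhere. They are not given without it. Against TUMOUR STD, RT1-Da in CHEMO FO differed relative to macrophage markers by -0.46 (exact permutation p = 0.030, unadjusted, 1 of 18 such tests). With any 1 library left out this ran from -0.54 to -0.37, the latter without CHEMO FO 18, and the exact permutation p from 0.0088 to 0.077. Relative to pan-leukocyte genes RT1-Da differed by -0.10 (exact permutation p = 0.345). In CHEMO STD versus TUMOUR STD the relative differences lay between -0.38 (RT1-Da) and 0.22 (Ciita), with p from 0.214 to 0.944. With CHEMO STD 7 left out, 3 members were lower relative to macrophage markers in CHEMO STD at an unadjusted p below 0.05. They were RT1-Da (-0.61, exact permutation p = 0.0079, the smallest that 5 against 5 samples can give), RT1-Bb (-0.25, exact permutation p = 0.040) and RT1-Ba (-0.38, exact permutation p = 0.048). Cd74 was then at -0.40 (exact permutation p = 0.056) and Ciita at -0.05 (exact permutation p = 0.905).

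The factors that carry Ciita to DNA and the interferon gamma pathway upstream of it showed no call in any comparison. Of 14 such genes, 12 were tested (among them Rfx5, Rfxank, Creb1, Nfya, Nfyb, Nfyc, Irf1, Jak1, Jak2, Ifngr1 and Ifngr2), and 6 lay higher and 6 lower in each of the 3 comparisons, with median log2 fold changes of 0.00 for CHEMO STD versus TUMOUR STD, -0.02 for CHEMO FO versus CHEMO STD and -0.01 for CHEMO FO versus TUMOUR STD, near the medians of all genes tested. The median of CHEMO FO versus CHEMO STD was -0.06 without CHEMO STD 7 (5 higher, 7 lower), and none was called. Rfxap was listed at 0 counts in every sample and Ifng, the interferon gamma gene, had at most 2 counts. In CHEMO STD 7, Irf1, a transcription factor induced by interferon, lay within the other samples (20.6 CPM against 10.8 to 23.9 CPM). Among the class I pathway genes given below, Tap1 (12.6 CPM, at most 10.6 elsewhere), Psmb9 (11.2, at most 8.61) and Psmb10 (19.6, at most 18.2) were highest there. So were the class I loci RT1-CE7 (17.1, at most 15.1), RT1-CE4 (4.71, at most 3.39), RT1-M3-1 (4.12, at most 3.97) and RT1-A2 (1.571, at most 1.545). The other class I pathway genes were not, among them Psmb8 (2.16 CPM, at most 2.90 elsewhere), Nlrc5 (8.83, at most 9.61), B2m (271.5, at most 315.7) and RT1-A1 (3.73, at most 4.28). An interferon response in this sample was not tested.

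Among 13 genes of class II loading and processing, 9 were tested, chiefly cathepsins and other endosomal enzymes. None was called in CHEMO STD versus TUMOUR STD (median log2 fold change 0.07) or in CHEMO FO versus CHEMO STD (median 0.11), and none without CHEMO STD 7 (medians 0.06 and 0.16). With CHEMO FO set against TUMOUR STD, 1 was called higher, Ctsl, which encodes a protease able to trim the invariant chain, at 1.06 (SE 0.49, edgeR adjusted p = 0.543). Ctsl stood at 1029 CPM in CHEMO FO 18 and at 85.7 to 200.6 CPM in the 18 other samples, and without CHEMO FO 18 the difference was 0.10. The 5 tested class II genes of CHEMO FO 18 lay within the other CHEMO FO samples.

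The class I pathway, which presents peptides to CD8 T cells, had 16 tested genes of 26 with a row. In CHEMO STD versus TUMOUR STD, 7 lay higher and 9 lower (median -0.06), and 1 was called, the class I locus RT1-T24-3 at -0.75 (SE 0.34, edgeR adjusted p = 0.719), which at -0.61 without TUMOUR STD 10 was not. None was called in CHEMO FO versus CHEMO STD (median -0.06) or in CHEMO FO versus TUMOUR STD (median -0.08). When CHEMO STD 7 was left out and 15 were tested, 4 lay higher and 11 lower in CHEMO STD versus TUMOUR STD (median -0.16, RT1-T24-3 called at -0.83), and the median of CHEMO FO versus CHEMO STD was 0.02.

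Of 10 co-stimulation and CD4 T cell genes, Cd4 alone was tested and was not called. The B cell activation ligand Cd40lg had 5 counts in CHEMO STD 7 and 0 in all others, and Cd3e, a chain of the T cell receptor complex, had 10 counts there and at most 5 elsewhere.

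Some leukocyte genes were called in the same direction as the class II genes in CHEMO FO versus CHEMO STD. Of 6 tested pan-leukocyte genes, all 6 lay lower and 3 were called: the phosphatase CD45 gene Ptprc (-1.16, SE 0.34), the actin regulator Coro1a (-1.75, SE 0.57) and Cytip (-1.16, SE 0.41). Lyz2 (-0.80, SE 0.23), the transcription factor Irf8 of dendritic and B cells (-0.83, SE 0.39) and the natural killer receptor Klrd1 (-1.37, SE 0.50) were also called, each with an edgeR adjusted p of 0.974. Of the other 12 macrophage markers tested, none was called. The directions within these lists were mixed. Of 13 macrophage markers, 4 lay higher and 9 lower (median -0.13), and of 6 tested dendritic cell markers, 3 lay higher and 3 lower (median -0.07). Without CHEMO STD 7, Klrd1 alone of the 6 leukocyte genes called was still called (-1.12). Its counts were low (17 in CHEMO STD 7, at most 16 elsewhere), and of 6 natural killer genes it was the only 1 tested. Lyz2 (-0.39, SE 0.15) and Ptprc (-0.38, SE 0.18) then passed the p threshold but not the fold, and Cytip (-0.42), Coro1a (-0.24) and Irf8 (-0.01) did not pass the p threshold. Of the 6 pan-leukocyte genes, 4 then lay lower and 2 higher (median -0.23). The part of these leukocyte genes in the class II differences was not tested.

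In CHEMO STD versus TUMOUR STD, 10 of 13 macrophage markers lay higher (median log2 fold change 0.50) and Lyz2 was among those called, at 0.72 (SE 0.26, edgeR adjusted p = 0.719). Ptprc (1.16, SE 0.38) and Coro1a (1.49, SE 0.63) were called among 6 pan-leukocyte genes, all 6 of which lay higher. Without CHEMO STD 7, Lyz2 was at 0.31, Ptprc at 0.39 and Coro1a at -0.01, none of these 3 called, and of the 6 pan-leukocyte genes 2 lay higher and 4 lower (median -0.03). The median of the macrophage markers was then 0.35, with 9 of 13 higher. The plasma cell marker Sdc1 was called lower at -1.12 (SE 0.50), and was not called without CHEMO STD 7 (-0.996) or without TUMOUR STD 10, the sample with keratinocyte genes (-0.43).

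In CHEMO FO versus TUMOUR STD, the macrophage scavenger receptor Cd163 was called higher at 1.22 (SE 0.49) and Sdc1 lower at -1.41 (SE 0.49). Cd163 was at 0.35 without CHEMO FO 18, where it stood at 271.9 CPM against 20.7 to 65.3 CPM in the others, and Sdc1 was at -0.72 without TUMOUR STD 10, neither of them called. None of the 7 endothelial genes was called in any comparison, and 0 of 9 B cell and 0 of 5 keratinocyte markers passed the filter.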

How the data were processed

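Ribosomal RNA-depleted stranded libraries of total RNA from gastrocnemius were sequenced in pairs by the authors, trimmed with Trim Galore 0.4.1, aligned to the rat genome (Rnor 6) with TopHat2 2.0.10 and Bowtie2, and counted on Ensembl genes in Partek Flow. The values deposited by the authors are unnormalised counts per gene. How strand and multiply matching reads were counted is not given in the sources used here. Levels of related RT1 loci, and the counts of 0 and 1 of RT1-DMa and RT1-DMb, are therefore uncertain. Of 32883 rows, 388 without a gene name, holding 0.102% to 0.272% of a library, were left out, and 2 values of Myh4 are written rounded. No column was without a sample.

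CPM, folds and p-values were computed here from the counts with edgeR 4.0.16 in R 4.3.3 (filterByExpr with minimum count 10 and minimum total 15, TMM, quasi-likelihood test, 3 groups in 1 fit), with Benjamini-Hochberg adjusted p over all genes tested. Calls used an unadjusted p below 0.05 and a fold of 1.5, the thresholds in the study's methods. CHEMO STD replicates 1 and 2 were summed. Members below the filter took their fit from a run without it. Two-sided exact permutation tests used log2 CPM with a prior count of 2, in 18 tests of levels, 18 relative to macrophage markers and 3 of Ciita relative to Cd74. With 3 groups of 5, 6 and 8 samples these have 462, 3003 and 1287 arrangements. Scripts were tested on simulated data. Alternatives were DESeq2 1.42.0, limma 3.58.1 voom with quality weights, other scalings and filters, and each library left out. When CHEMO STD replicate 1 or 2 was the library left out, the other stayed as their sample. Leaving out 1 library therefore never removed that sample. Depth and binomial intervals (95%, exact) cover counting error only.

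The genes and lists were chosen with earlier results of these data known. Named were every member, list genes that were called, and the 5 genes most correlated with the members; other list genes named with their counts in CHEMO STD 7 were chosen after their values were seen. The labels tie no library to an animal, so p-values measure the spread between libraries. Levels are not compared between genes, since no gene lengths were used. Values of some list genes are not reported here.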

Additional observations from a re-analysis of the deposited data

Results flagged for a closer look

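In CHEMO STD, 1 sample was far from the others of its group in 5 of the class II genes, and it was the same sample each time. CHEMO STD 7 stood at 26.7 CPM in RT1-Ba, 62.0 CPM in RT1-Bb, 99.1 CPM in RT1-Da, 335.3 CPM in Cd74 and 13.6 CPM in Ciita. By Dixon's criterion for 6 samples, the gap to the next sample was 0.71, 0.69, 0.71, 0.72 and 0.65 of the group's whole range. Of 21 groups of values examined this way, 5 passed, where chance passes about 1 in 20. The 5 are not independent, since the members rise and fall together. Against the mean of the 5 other CHEMO STD samples, the level was 3.55-fold in RT1-Ba, 2.54-fold in RT1-Bb, 3.18-fold in RT1-Da, 3.22-fold in Cd74 and 3.63-fold in Ciita. The B cell and lymph node genes that move with it in this sample are given above, and their part in these levels was not tested.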

How the results depend on the processing

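No paired analysis was possible because the labels number the libraries from 1 to 20 and no number is shared between groups. Of 1485 values recomputed under an alternative, 1396 kept their direction and their side of the threshold and 46 changed sign. Without the filter, when more genes were tested, 971 genes were called in CHEMO STD versus TUMOUR STD (603 with the filter and both replicates 1 and 2 left out), 722 between CHEMO FO and CHEMO STD, and 1116 between CHEMO FO and TUMOUR STD. With limma voom, 1 class II gene was called in CHEMO FO versus CHEMO STD, and Cd74 was at 0.094 in CHEMO FO versus TUMOUR STD. With any 1 library left out, 0 to 1 class II genes were called in CHEMO STD versus TUMOUR STD (Ciita in each case), 1 (without CHEMO STD 7) to 5 (without CHEMO STD 3; 4 without CHEMO STD 5) in CHEMO FO versus CHEMO STD, and 0 in CHEMO FO versus TUMOUR STD. All genes called then ranged from 161 (without TUMOUR STD 10) to 529 (without TUMOUR STD 8; 450 without TUMOUR STD 11), from 153 to 238, and from 273 (without CHEMO FO 18) to 584, in the same order.

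Differences that changed sign with 1 library left out are given by their lowest and highest values. In CHEMO STD versus TUMOUR STD, fitted log2 fold changes ran from -0.091 to 0.65 (RT1-Ba), -0.31 to 0.30 (RT1-Da) and -0.12 to 0.485 (Cd74), and mean log2 CPM differed by -0.084 to 0.42 (RT1-Ba), -0.31 to 0.12 (RT1-Da), -0.18 to 0.59 (RT1-Db1) and -0.10 to 0.33 (Cd74). Relative to macrophage markers this comparison ran from -0.38 to 0.0021 (RT1-Ba), -0.25 to 0.0021 (RT1-Bb), -0.51 to 0.34 (RT1-Db1) and -0.052 to 0.51 (Ciita). For CHEMO FO versus CHEMO STD, mean log2 CPM differed by -0.40 to 0.016 (RT1-Da) and -0.42 to 0.0067 (Cd74), and relative to macrophage markers by -0.19 to 0.15 (RT1-Da) and -0.21 to 0.14 (Cd74). In CHEMO FO versus TUMOUR STD, the Cd74 fold change ran from -0.25 to 0.021, mean log2 CPM differed by -0.56 to 0.22 (RT1-Db1) and -0.23 to 0.04999 (Cd74), and RT1-Db1 relative to macrophage markers by -0.71 to 0.14. Ciita relative to Cd74 ran from 0.23 to 0.56 (exact permutation p = 0.048 without CHEMO STD 3) in CHEMO STD versus TUMOUR STD, from -0.75 to -0.48 in CHEMO FO versus CHEMO STD and from -0.34 to -0.07 in CHEMO FO versus TUMOUR STD.

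With pan-leukocyte in place of macrophage markers, CHEMO FO versus CHEMO STD was at 0.058 (RT1-Ba), 0.13 (RT1-Bb), 0.29 (RT1-Da), 0.18 (RT1-Db1) and 0.27 (Cd74), and CHEMO FO versus TUMOUR STD at 0.046 (RT1-Bb), 0.12 (RT1-Db1) and 0.10 (Cd74). With a prior count of 0.5, RT1-Db1 was at 0.18 in CHEMO FO versus TUMOUR STD, and relative to macrophage markers at 0.26 in CHEMO STD versus TUMOUR STD and 0.010 in CHEMO FO versus TUMOUR STD. The cause of these changes was not tested. Low counts limit Ciita (4 to 100 per sample) and RT1-Db1 (0 to 19) most.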
